A study of Mus musculus with 16 samples.

Results

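Ubiquitin-conjugating enzymes, called E2, receive activated ubiquitin from an E1 enzyme and pass it, together with an E3 ligase, to a target protein. The choice of E2 sets much of what follows: some build the chains that send a protein to the proteasome, some build chains used in signalling, some attach a single ubiquitin to chromatin or repair proteins, and a few carry NEDD8 or ISG15 instead. In myeloid cells these enzymes serve protein turnover, inflammatory signalling and DNA repair alike. The transcripts described here are the mouse genes whose symbol starts with Ube2 and a lower-case letter, without the mitotic gene Ube2c. Of 36 such genes among the 21177 genes of the deposited table, 27 had a mean of at least 1 CPM (reads scaled to library size) in their most covered interval, and these 27 are the members.

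Labelled RNA was followed in mouse leukemia cells of 2 genotypes, WT and YBX1-/-. The strain is labelled C57BL/6 and the tissue bone marrow. The protein YBX1 binds RNA, and the title of the series names its part in mRNA stability in myeloid leukemia, dependent on the RNA mark m6A. The cells took up 50 µM 4-thiouridine (4sU) over 24 h, were washed, and were then kept with 10 mM uridine. PolyA RNA was collected at 0, 0.5, 1, 3, 6, 12, 18 and 24 h of this chase, with 1 library for each genotype and time, 16 in all. No genotype or treatment beyond these is labelled. No animal age, oncogene or deletion strategy is given in the labels, nor whether the time points came from separate cultures. The p-values therefore measure only the scatter of time points around each fit. For a slope, this scatter includes any departure from a straight line. The value in each library is the T-to-C rate, the share of signal that carries the base change left by 4sU. It is given here in percent. A rate is not an amount of RNA, and dilution by new transcripts cannot be told apart from decay. The values are means over all cells of a library, so a change in the mix of cells cannot be told apart from a change within cells.

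Levels of marker genes could be read only as the authors' mean CPM over all libraries. All 12 myeloid markers were at 1 CPM or more, from 1.94 for Kit to 7376 for Lyz2. Of the other lists, 2 of 6 erythroid, 1 of 7 lymphoid, 3 of 4 megakaryocyte and 1 of 7 stromal and endothelial markers reached 1 CPM, with summed levels of 2.78, 12.1, 69.6 and 5.24 CPM. Alas2 was at 0, and the platelet genes Pf4 and Ppbp were at 39.8 and 28.1 CPM. The part of other cells in the rates was not tested. Ybx1 itself had rates above 0 in all libraries, from 3.08% to 72.0% in YBX1-/- and from 5.08% to 61.4% in WT, in a 3' interval with a mean of 32.5 CPM. A rate is no level and the deleted stretch is not labelled, so these values do not check the genotype. The YBX1-/- library of 0 h stood apart, with 3.64% of the 7411 tested genes listed at 0 against 0.0945% in the WT library of 0 h. None of the 27 E2 genes was at 0 in either of them. A rate of 0 is also listed for genes with a mean of 0 CPM, such as Ube2ql1. Here and below, a listed 0 can therefore mean no reads as well as no label.

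All 27 members were tested. Their mean CPM, which the rule used, had a median of 19.1, beside 10.4 for tested genes. It ran from 1.89 for Ube2o, a large enzyme that joins E2 and E3 activity, to 208 for Ube2d3, a broadly used E2. Their intervals, all in a 3' UTR of their own gene, had a median length of 1605 bases (from 342 for Ube2t to 4982 for Ube2f) against 1168 for tested genes, and a median T content of 32.6% against 29.3%. The interval of Ube2e1 overlapped exons of Nkiras1 on the opposite strand. That of Ube2v1 overlapped Gm11476 on the opposite strand and the readthrough gene Gm20431 on its own strand, so its reads may be shared. Some members had further intervals of at least 1 CPM that did not overlap the one used. These were 3 each for Ube2k and Ube2t, 2 for Ube2g2, and 1 each for Ube2d3, Ube2g1 and Ube2w. Rates in the further intervals are not given here, so values below describe 1 interval per gene. Testing required a rate above 0 in 12 or more of the 16 libraries. All 27 members, already limited to at least 1 CPM, reached this. Of the 36 symbols before that limit, 27 reached it, beside 7411 of the 21177 genes of the table, to which no such limit applied. Of the members, 17 had a rate above 0 in all 16, beside 2836 of the 7411 tested genes.

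E2 transcripts started the chase with much label and lost nearly all of it within 1 day in both genotypes. In WT the members' median rate was 44.7%, 55.7%, 47.2%, 24.9%, 12.0%, 2.04%, 1.32% and 0.63% from 0 to 24 h, in the order of the time points. In YBX1-/- it was 35.3%, 39.5%, 31.0%, 18.9%, 6.0%, 1.29%, 0.862% and 0.629%. The medians of all tested genes ran close to these, at 42.9%, 19.9%, 10.2% and 0.847% in WT at 0, 3, 6 and 24 h, and at 33.3%, 18.2%, 4.76% and 0.768% in YBX1-/-. The E2 median was above the tested median in each library from 0 to 6 h, and below it at 12 and 24 h in both genotypes. No test was made over the members.

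**Figure D1:**
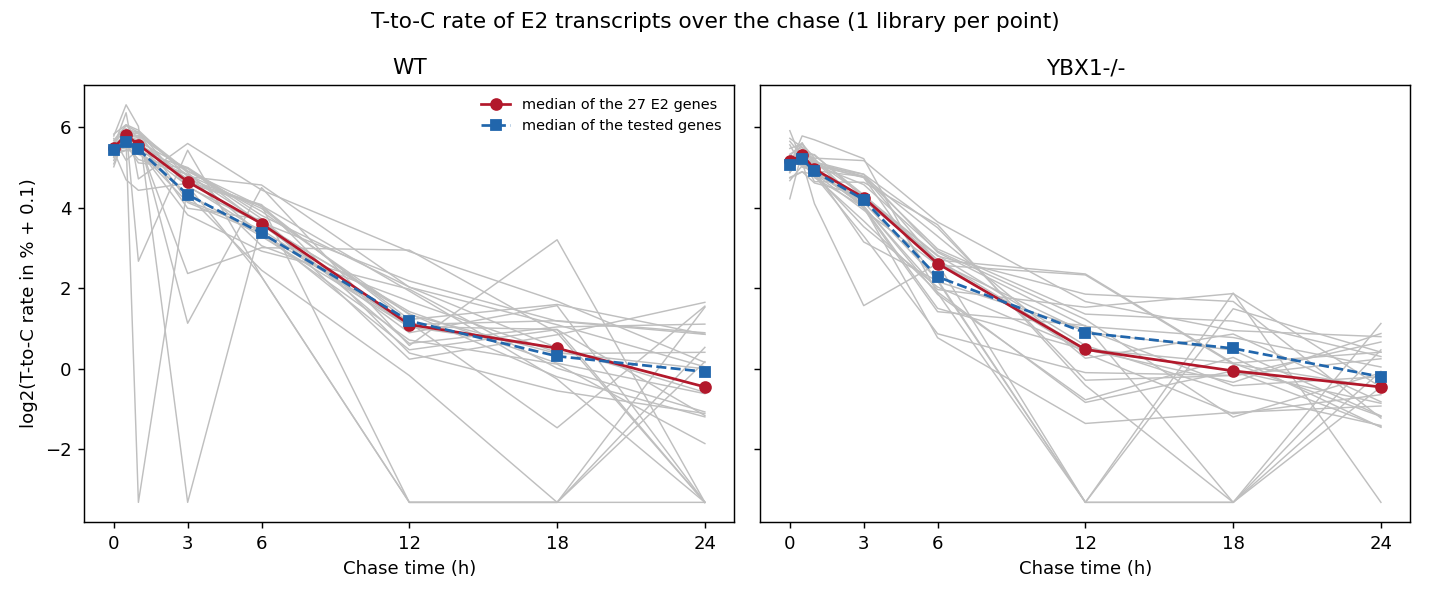
T-to-C rate, as log2(rate in % + 0.1), against chase time in h for the 27 E2 genes (grey), their median (red) and the median of the 7411 tested genes (blue), with 1 library per point and no error bar. The E2 median falls from 44.7% to 0.63% in WT and from 35.3% to 0.629% in YBX1-/-, and grey lines at the bottom are rates listed at 0.

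Over the whole chase each of the 27 transcripts lost label in each genotype. In a straight-line fit of log2(rate + 0.1) over hours (limma, adjusted p under 0.05), 27 of 27 fell in WT, where 95.2% of tested genes did, and 27 of 27 in YBX1-/-, where 91.5% did. The members had a median slope of -0.28 (log2 per h, WT) and -0.27 (YBX1-/-), beside -0.27 and -0.25 for tested genes. With 1 time point left out, the slopes of Ube2o, Ube2t, Ube2v1 and Ube2v2 in WT and of Ube2h in YBX1-/- no longer passed in at least 1 of the 8 refits, with limma adjusted p from 0.0523 to 0.222, while their sign stayed negative. Over 0 to 6 h, 21 of 27 fell in WT, beside 6158 of 7411 tested genes, and 27 of 27 in YBX1-/-, beside 6281 of 7411. Those that did not pass in WT were Ube2l6, Ube2m, Ube2o, Ube2t, Ube2v1 and Ube2v2. As half-lives of label these slopes gave a median of 3.6 h in WT, from 2.79 h for Ube2d1 to 4.74 h for Ube2q1, and of 3.72 h in YBX1-/-, from 2.82 h for Ube2v2 to 4.8 h for Ube2j2. The middle 50% of tested genes spanned 3.02 to 4.36 h in WT and 3.49 to 4.69 h in YBX1-/-. The added 0.1 percentage points set the half-life of a gene whose late rates are at or near 0. Among these were Ube2d1 and Ube2j2 in WT, both at 0% at 24 h, and Ube2v2 in YBX1-/-, at 0% at 12 and 24 h. With only 0 to 6 h used, the members' median slope was -0.34 in WT and -0.46 in YBX1-/-, beside -0.39 and -0.47 for tested genes.

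**Figure D2:**
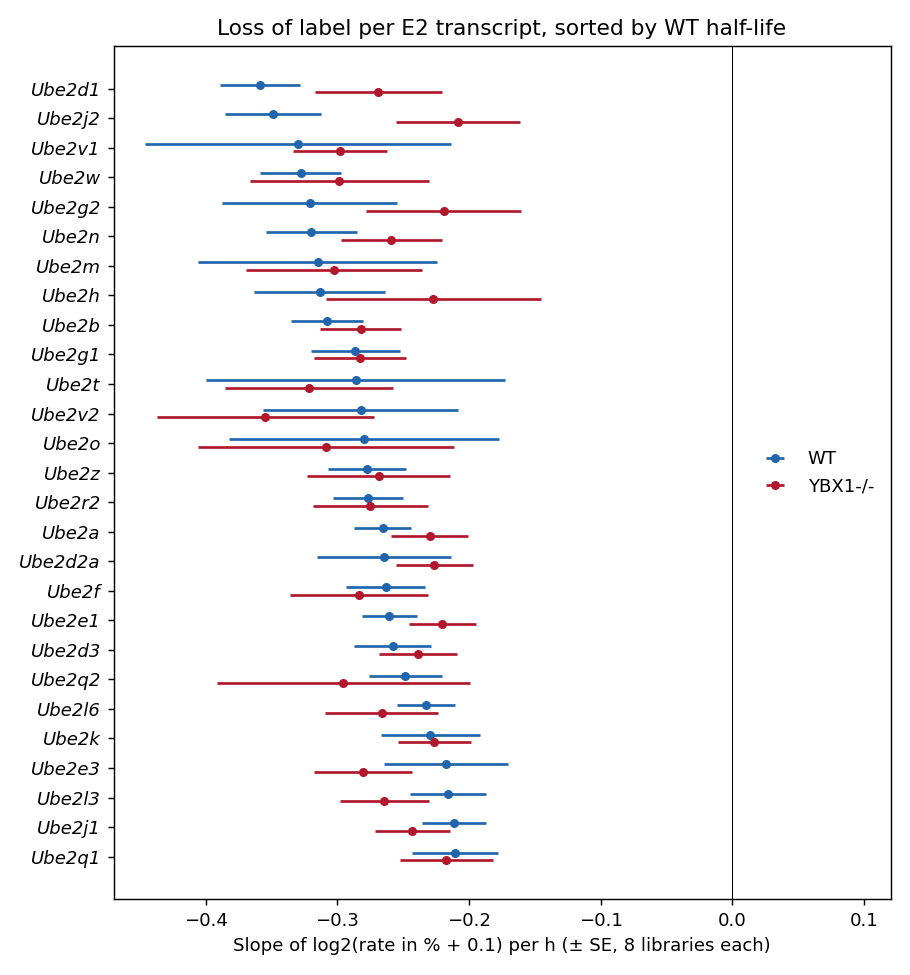
Slope of log2(rate in % + 0.1) per h with its SE for each of the 27 E2 genes in WT (blue) and YBX1-/- (red), each fitted over 8 libraries and sorted by WT half-life. All points lie left of 0. In WT the SEs are widest for Ube2v1, Ube2t and Ube2o, genes with few reads, and in YBX1-/- for Ube2o and Ube2q2.

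The UBE2D and UBE2E enzymes work with many different E3 ligases. Ube2d3, the most covered member (ENSMUSG00000078578, GRCm38 chromosome 3, 135465241 to 135468198), gave 47.5%, 56.1%, 55.0%, 29.9%, 14.9%, 2.43%, 1.2% and 1.22% along the WT chase, listed here and below from 0 to 24 h. Along the YBX1-/- chase it gave 34.0%, 42.5%, 35.0%, 28.3%, 7.3%, 1.97%, 1.61% and 0.928%. It was lower in YBX1-/- at 7 of 8 time points. Relative to the library median, which removes a shift shared by all genes of a library, it was lower at 3 of 8. The slope difference is the slope in YBX1-/- minus that in WT after this subtraction, so a negative value stands for faster loss of label in YBX1-/- and a positive one for slower loss. For Ube2d3 it was -0.0011 log2 per h (95% interval -0.038 to 0.036) and a level difference of -0.014 log2 (-0.33 to 0.30). Ube2d2a had 57.7% as its mean of 0 to 1 h in WT and 38.1% in YBX1-/-, and Ube2d1 had 46.1% and 28.9%. At 6 h these had kept 28.0% and 35.7% of that start in WT and 16.8% and 9.42% in YBX1-/-. Ube2e1 had the highest share kept at 3 h among YBX1-/- members, 89.3%, against 44.3% in WT.

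Ube2e3 (ENSMUSG00000027011, chromosome 2, 78920056 to 78921293) had WT rates of 50.8%, 66.2%, 52.3%, 15.7%, 13%, 1.08%, 1.69% and 3.03%. YBX1-/- cells had 44.2%, 47.9%, 33.3%, 23.7%, 7.46%, 2.23%, 0.334% and 0.831% for this gene. In WT its rate was higher at 24 h than at 12 and 18 h, and YBX1-/- was the higher genotype at 3 and 12 h. The slope difference was -0.08 log2 per h (SE 0.038, limma adjusted p = 0.416), which did not pass. Over 0 to 12 h, without these late libraries, it was 0.10, in the other direction, and over 0 to 6 h it was 0.07.

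Among the E2s that use ligases carrying their own catalytic cysteine stands Ube2l3, which also serves the linear chain assembly complex of inflammatory signalling. Ube2l3 (ENSMUSG00000038965, chromosome 16, 17152013 to 17154127) had the smallest p of the 27 for the slope difference. Its WT rates were 43.6%, 44.5%, 48.2%, 28.0%, 15.7%, 2.23%, 2.92% and 1.71%, and its YBX1-/- rates were 37.2%, 36.8%, 30.1%, 27.2%, 9.67%, 1.09%, 1.71% and 0.465%. YBX1-/- was lower at 8 of 8 time points, and at 4 of 8 relative to the library median. The ratio of the genotypes was widest at 24 h. The slope difference of -0.07 log2 per h, in the direction of faster loss in YBX1-/- (SE 0.018, 95% interval -0.11 to -0.027), had an unadjusted p of 0.00523 and an adjusted p of 0.186 (limma), so it did not pass over all genes. Over the alternatives the adjusted p ran from 0.0827 to 0.598. Over 0 to 6 h it was 0.05, of the opposite sign.

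Enzymes anchored in the endoplasmic reticulum membrane or acting there mark misfolded proteins for export and degradation. Ube2j1 (ENSMUSG00000028277, chromosome 4, 33049961 to 33052363) had 32.2%, 58.7%, 39.8%, 28.1%, 12.3%, 4.42%, 2.16% and 1.7% in WT and 39.1%, 36.5%, 28.7%, 15.2%, 5.83%, 4.92%, 0.98% and 0.623% in YBX1-/-. This was among the slowest losses in WT, with a half-life of 4.73 h against 4.11 h in YBX1-/-. Ube2j2 (ENSMUSG00000023286, chromosome 4, 155957366 to 155959604) had 48.1%, 61.7%, 58.2%, 17.8%, 10.9%, 1.96%, 1.86% and 0% in WT and 26.5%, 29.5%, 28.2%, 11.4%, 3.97%, 1.29%, 0.69% and 1.73% in YBX1-/-. YBX1-/- was lower at 7 of 8 time points, also relative to the library median, and higher at 24 h, where the WT rate was listed at 0. The 2 membrane-anchored enzymes had slope differences of opposite sign, -0.05 log2 per h (SE 0.026), towards faster loss in YBX1-/-, for Ube2j1 and 0.12 (SE 0.058), towards slower loss, for Ube2j2, with limma adjusted p = 0.458 and 0.448, so neither passed, and they were not tested against each other. Without the 24 h time point the value of Ube2j2 was -0.04, and over 0 to 12 h that of Ube2j1 was 0.02, both of the opposite sign. Ube2g2, which works with membrane ligases of the same pathway, had kept the least label of the 27 at 6 h in WT, 11.4% of its start, and 5.12% in YBX1-/-.

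The 4 transcripts with the smallest p for the slope difference each held GGACT, a common form of the sequence in which m6A is placed, and the first copy from the 5′ end of each interval is shown. Whether any of these copies carries m6A was not measured. The windows run 5′ to 3′ on the RNA strand, with the motif in capitals, and are read from GENCODE M21 transcripts (GRCm38): Ube2l3 from chr16:17154041-17154065 on the minus strand, Ube2e3 from chr2:78920126-78920150, Ube2j2 from chr4:155957450-155957474 and Ube2j1 from chr4:33050140-33050164, these last 3 on the plus strand.
Ube2l3: ccgcaaagcaGGACTctgtggaaat
Ube2e3: tttacaatacGGACTtctgtgtata
Ube2j2: gtggcctgccGGACTcccgggcttc
Ube2j1: cctaggttatGGACTggaagccata

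Most intervals of this length held the motif. The intervals of Ube2l3, Ube2e3, Ube2j2 and Ube2j1 held 5, 3, 4 and 2 copies on the RNA strand, the only strand searched. Of 20 members with intervals of 1000 to 4000 bases, 17 held GGACT (85.0%), beside 81.2% of the 3484 tested intervals in that range, at 1.12 and 0.956 copies per kb. TATTTAT, the core of AU-rich elements, was in 6 of the 20 (30.0%) beside 39.6%, and TGTANATA, the sequence that Pumilio proteins bind, in 9 (45.0%) beside 34.8%. Overlapping copies were each counted, and copies of different motifs can share bases at their ends. Ube2d3, Ube2l3, Ube2n and Ube2r2 each held 5 copies of GGACT, the most among the 27. The number of copies was not tested against the slopes or the slope differences.

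Chains linked through lysine 63 of ubiquitin, used in signalling and repair, are built by Ube2n together with a catalytically inactive partner, Ube2v1 or Ube2v2. Ube2n (ENSMUSG00000074781, chromosome 10, 95542313 to 95545657) had 48.4%, 51.7%, 53.3%, 24.9%, 16.7%, 1.21%, 0.581% and 0.362% in WT and 29.2%, 41.2%, 33.7%, 26.7%, 4.38%, 1.87%, 0.645% and 0.771% in YBX1-/-. Its WT slope of -0.32 log2 per h was 1 of the 2 steepest among members above 0 in all WT libraries. YBX1-/- was lower at 0 to 1 h and at 6 h and higher at the other 4 time points.

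Ube2v1 (ENSMUSG00000078923, chromosome 2, 167607638 to 167609100) had the largest level difference of the 27, and it rested on rates listed at 0. In WT its rates were 37.8%, 50.0%, 0%, 23.2%, 4.76%, 0%, 0% and 0%, and in YBX1-/- they were 35.3%, 32.8%, 36.0%, 19.6%, 6.94%, 1.39%, 0.562% and 0.276%. The WT rate of 0% at 1 h stood between 50.0% and 23.2%, at a mean of 6.71 CPM, and YBX1-/- was the lower genotype at 0, 0.5 and 3 h. The difference relative to the library median was 2.42 log2 (SE 1.01, adjusted p = 0.779, limma), and it was 1.48 without the 1 h time point, 1.51 with a pseudocount of 0.5 and 4.0 with one of 0.01. Ube2v2, at 2.61 CPM, gave 2.08% at 3 h, then 22.4% at 6 h and 1.39% at 12 h along the WT chase.

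Repair and chromatin enzymes include Ube2a and Ube2b, the close mammalian relatives of yeast Rad6. Ube2b (ENSMUSG00000020390, chromosome 11, 51985497 to 51986681) had 45.1%, 54.7%, 59.0%, 22.7%, 12.0%, 2.47%, 0.767% and 0.336% in WT and 40.0%, 45.2%, 34.8%, 27.3%, 6.14%, 1.77%, 1.27% and 0.343% in YBX1-/-. Its slope difference was 0.005 log2 per h (95% interval -0.041 to 0.052). Ube2a started lower, with a mean of 41.5% over 0 to 1 h in WT against 52.9% for Ube2b, and of 26.9% in YBX1-/-, the lowest of the 27, against 40.0%. At 6 h Ube2a had kept more of that start, 33.5% in WT and 25.4% in YBX1-/-, where Ube2b had kept 22.7% and 15.4%. Ube2t, the E2 of the Fanconi anaemia pathway, moved from 93.8% at 0.5 h and 64.7% at 1 h to 0% at 3 h and back to 11.9% at 6 h along the WT chase, at 3.36 CPM.

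Ube2w, which attaches ubiquitin to the start of proteins, had the steepest WT slope among members above 0 in all WT libraries. Ube2w (ENSMUSG00000025939, chromosome 1, 16569782 to 16571268) had 44.9%, 57.8%, 56.9%, 29.1%, 9.91%, 1.54%, 0.979% and 0.175% in WT and 36.9%, 40.3%, 31.0%, 16.1%, 1.6%, 0.289%, 0.37% and 0.425% in YBX1-/-. At 6 h the YBX1-/- library had kept 4.44% of the start, the least of the 27, against 18.6% in WT. The level difference was -0.58 log2 (SE 0.38, adjusted p = 0.779, limma), lower in YBX1-/- at 6 of 8 time points relative to the library median, and it did not pass. Its interval had the highest T content of the members, 37.9%, and was the only member interval with 2 copies of TATTTAT, shown in capitals from chr1:16570663-16570689 and chr1:16570333-16570359, minus strand.
Ube2w first copy: gatcattgcaTATTTATttaattgttt
Ube2w second copy: ctatttcattTATTTATgtttggaaaa

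Among builders of chains linked through lysine 48, the mark for the proteasome, Ube2k, Ube2g1 and Ube2r2 did not pass for a difference between genotypes. Their slopes lay from -0.29 to -0.23 log2 per h in WT and from -0.28 to -0.23 in YBX1-/-, and their slope differences were -0.017 (95% interval -0.069 to 0.034), -0.017 (-0.076 to 0.043) and -0.019 (-0.088 to 0.051), in that order. Ube2r2 was lower in YBX1-/- at 8 of 8 time points and Ube2g1 at 7, but relative to the library median at 5 and 3 of 8. Ube2k held the most copies of TGTANATA, 4, and its half-lives of 4.36 h in WT and 4.42 h in YBX1-/- lay in the slower part of the family. These copies are shown because no other member held as many, from chr5:65595096-65595123, chr5:65595898-65595925, chr5:65595996-65596023 and chr5:65596946-65596973, plus strand.
Ube2k copy A: ttccctgctcTGTAAATAaagctaatta
Ube2k copy B: gctgtctcacTGTATATAccagatgcac
Ube2k copy C: taccttctctTGTACATAaacttcctgt
Ube2k copy D: ttactggagaTGTATATAtaacatgtgg

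The E2s of ubiquitin-like proteins were Ube2m and Ube2f, which carry NEDD8 to cullins, and Ube2l6, which carries the interferon-induced ISG15. Ube2f (ENSMUSG00000034343, chromosome 1, 91285356 to 91290337) had 42.0%, 46.5%, 41.4%, 20.2%, 9.63%, 1.95%, 1.32% and 0.63% in WT and 29.1%, 39.5%, 29.8%, 16.4%, 3.48%, 0.484%, 1.11% and 0.264% in YBX1-/-, lower at 8 of 8 time points and at 6 of 8 relative to the library median. Ube2m (ENSMUSG00000005575, chromosome 7, 13035120 to 13035613) had 42.3%, 25.7%, 21.4%, 24.2%, 16.5%, 0%, 0% and 1.34% in WT and 37.0%, 37.6%, 24.9%, 24.6%, 11.8%, 0.649%, 0% and 1.28% in YBX1-/-. Unlike most members, Ube2m was higher in YBX1-/- at 0.5, 1, 3 and 12 h. It had also kept the most of its start at 6 h in both genotypes, 55.4% in WT and 35.6% in YBX1-/-. That start, the mean of 0 to 1 h, was low in WT, at 29.8% beside a family median of 47.3%. At 12 h the shares kept by Ube2m were 0% in WT and 1.96% in YBX1-/-. Relative to the library median, the level difference was -0.41 log2 (SE 0.27) for Ube2f and 0.72 (SE 0.44) for Ube2m, both with adjusted p = 0.779 (limma), so neither passed. Ube2l6 had a mean start of 51.2% in WT and 40.7% in YBX1-/- and had kept 42.1% and 27.5% of it at 6 h.

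The remaining enzymes were Ube2h, which works with the CTLH ligase, Ube2z, which takes ubiquitin from the E1 enzyme Uba6, the hybrid enzyme Ube2o, and the less studied Ube2q1 and Ube2q2. Ube2q1 (ENSMUSG00000042572, chromosome 3, 89782289 to 89784000) had the shallowest WT slope, with 41.8%, 42.9%, 42.5%, 17.4%, 10.2%, 2.04%, 2.18% and 1.75%. In YBX1-/- it had 29.2%, 40.9%, 37.1%, 16.2%, 3.8%, 2.78%, 3.54% and 0.627%. From 12 h on the WT rate stayed between 1.75% and 2.18%, and the YBX1-/- rate was higher at 12 and 18 h and lower at 24 h. At 3 h Ube2q1 had kept 40.9% of its start in WT, below the family median of 51.8%. Ube2z had kept 17.0% at 6 h in WT and 11.4% in YBX1-/-, Ube2h 15.7% and 12.1%, Ube2q2 20.0% and 13.6%, and Ube2o 13.7% and 16%. These shares were uneven for Ube2o, at 1.89 CPM, which stood at 123% at 3 h in WT and 7.63% in YBX1-/-. Ube2h in WT stood at 10.0% at 3 h and 15.1% at 12 h.

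Between the genotypes, no E2 transcript passed for the slope difference or for the level of label. For the slope difference 0 of 27 passed (limma, adjusted p under 0.05), where 0.108% of tested genes did, 3 with slower and 5 with faster loss in YBX1-/-. Without subtraction of the library median these were 7 with slower and 5 with faster loss, and again 0 members. For the level 0 of 27 passed, where 0% of tested genes did. At an unadjusted p under 0.05 there was 1 member for the slope difference (Ube2l3), beside 12.5% of tested genes, and 1 for the level (Ube2v1), beside 5.6%. The slope difference was positive in 11 members and negative in 16, beside 52.4% of tested genes positive, with a median of -0.012 log2 per h beside 0.004. Without subtraction of the library median it was positive in 17 members and negative in 10, beside 65.7% of tested genes positive, and its median was 0.0088, so the balance of signs turned with this step. The level difference was also positive in 11 and negative in 16, beside 50.7% of tested genes positive, with a median of -0.06 log2 beside 0.009. At single time points this median ran from -0.26 at 18 h to 0.13 at 24 h. Over 0 to 12 h, 10 of 27 had an unadjusted p under 0.05 for the slope difference, beside 31.2% of tested genes, and 0 passed. Without the YBX1-/- library of 0 h, 0 genes and 0 members passed for the slope difference, and 0 members for the level. With 12 h or 18 h left out, 204 and 91 genes passed for the slope difference, again with 0 members.

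**Figure D3:**
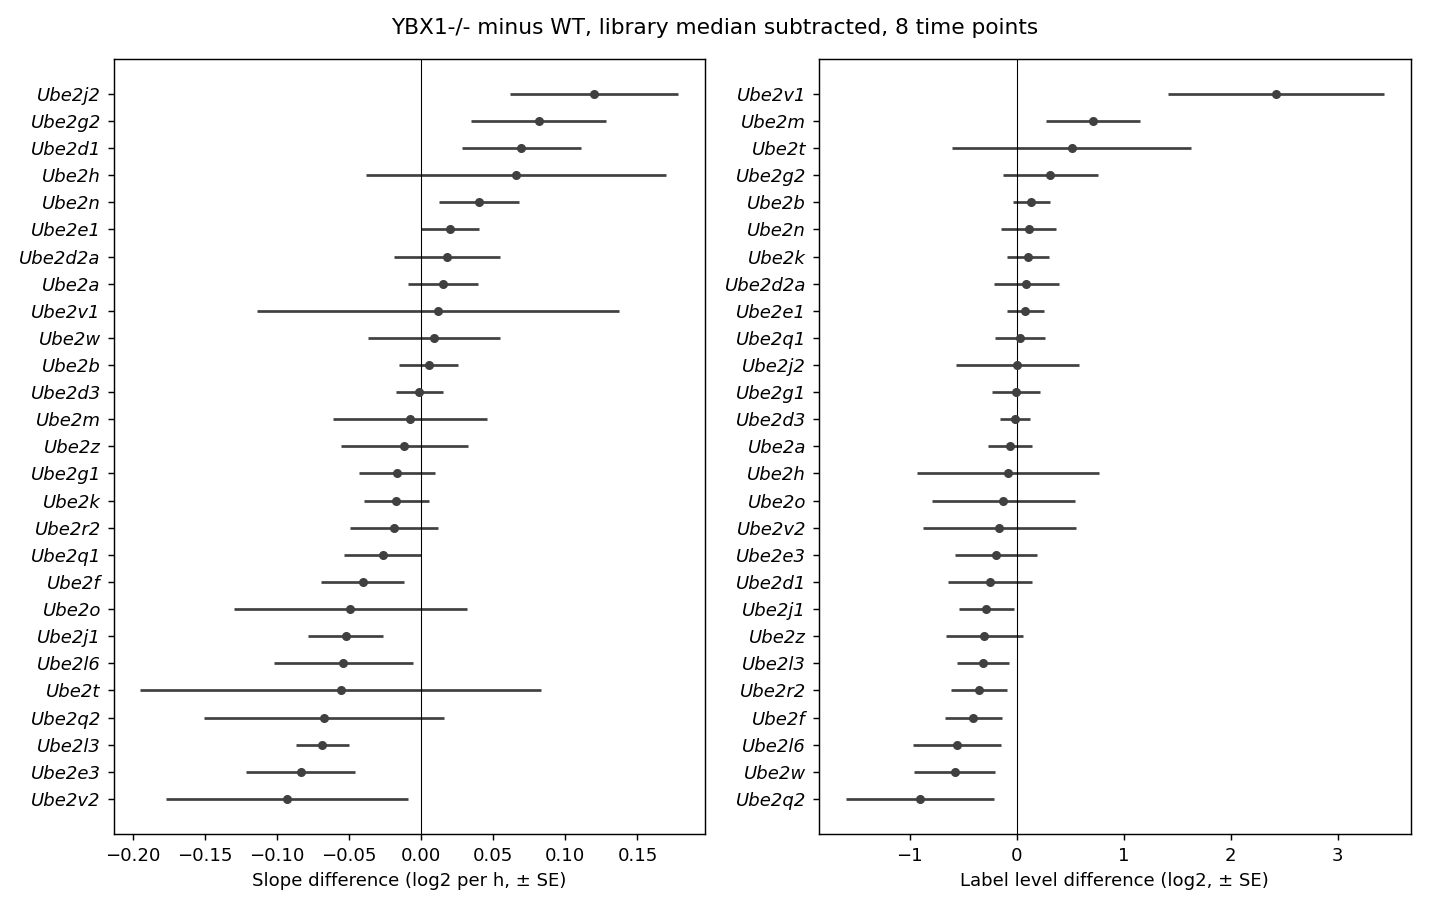
Slope difference in log2 per h (left) and label level difference in log2 (right), YBX1-/- minus WT with the SE, for the 27 E2 genes after subtraction of the library median, each panel sorted by its own values. In each panel 11 genes lie above 0 and 16 below, and the largest level difference, of Ube2v1, has one of the widest SEs.

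In plain rates, E2 transcripts carried less label in YBX1-/- early in the chase, as most genes did. At 0, 0.5 and 1 h, 22, 24 and 23 of 27 members were lower in YBX1-/-, which is 81.5%, 88.9% and 85.2% beside 75%, 85.5% and 87.5% of tested genes. At 6 h 25 of 27 were lower (92.6%, beside 86.0%), all but Ube2v1 and Ube2o. From 12 h on the members were divided, with 15, 14 and 13 of 27 lower at 12, 18 and 24 h, which is 55.6%, 51.9% and 48.1% beside 54.6%, 41.0% and 49.4% of tested genes. Without subtraction of the library median, the level difference had a median of -0.41 log2 over the members and -0.34 over tested genes, with 3 of 27 members positive (11.1%) beside 27% of tested genes.

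The share of the early label that was kept at 6 h was also lower in YBX1-/- for 25 of 27 members (92.6%), beside 72.5% of tested genes. Its median over the members was 24.0% of the mean of 0 to 1 h in WT and 16% in YBX1-/-, beside 22.8% and 14.7% for tested genes. At 3 h the order was the other way for most, with 11 of 27 lower in YBX1-/- (40.7%) beside 33.6% of tested genes, and the medians were 51.8% in WT and 55.5% in YBX1-/-. At 12 h 11 of 27 were lower, beside 44.8% of tested genes. Each of these comparisons rests on 1 library per genotype and time, so a shift of a whole library enters all members at once. No test was made of them.

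Scatter was wider in the members with fewer reads. The scatter between time points, given as the residual SD of the slope difference fit, had a median of 1.35 log2 in the 9 members of lowest mean CPM (1.89 to 10.8 CPM), 0.686 in the middle 9 and 0.318 in the 9 of highest CPM (28.6 to 208 CPM). A rate of 0 occurred in 7, 2 and 1 of these 9. Across the 27 genes Spearman's rho between mean CPM and this SD was -0.79, a description over genes that share the same libraries. Ube2t, Ube2v1 and Ube2h had the widest scatter, 2.71, 2.34 and 2.03 log2, and Ube2d3 the smallest, 0.104.

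**Figure D4:**
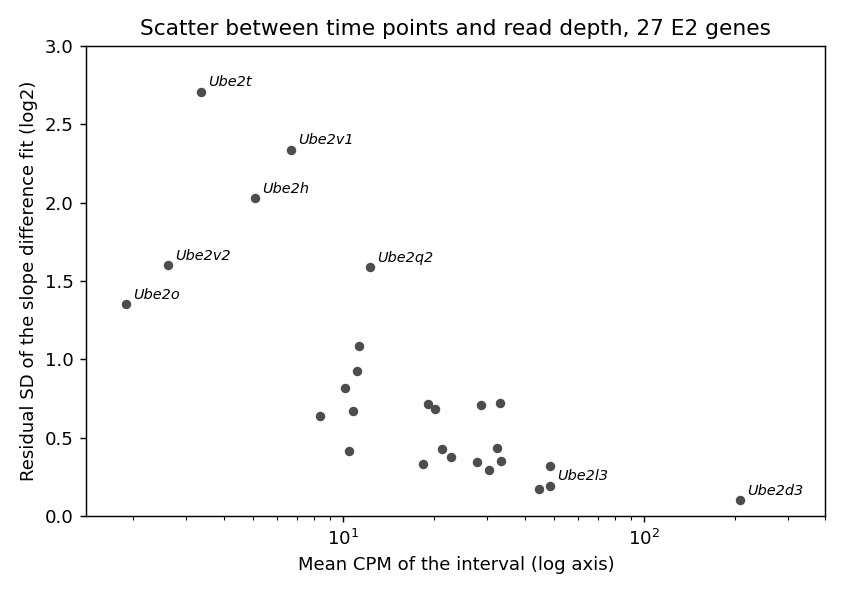
Residual SD of the slope difference fit in log2 against mean CPM of the interval (log axis), 1 point for each of the 27 E2 genes, with some named. The SD falls from 2.71 for Ube2t to 0.104 for Ube2d3, the gene with the most reads.

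In the neighbouring steps of the pathway, too, no gene passed between genotypes. Of 12 tested genes for E1 enzymes and ubiquitin, label fell in 11 in WT and in 12 in YBX1-/-, beside 95.2% and 91.5% of tested genes. Between genotypes 0.108% (slope difference) and 0% (level) of tested genes passed (limma), and 0 of these 12. Among those with the smallest p for the slope difference were Nae1 (-0.20 log2 per h, SE 0.054, adjusted p = 0.186) and Uba7 (-0.29, SE 0.086, 0.197), which activate NEDD8 and ISG15. Uba7 passed without the 12 h time point (adjusted p = 0.0213, limma). Both genes had few reads, with a mean of 2.93 CPM for Nae1 and 3.2 CPM for Uba7. In YBX1-/- Nae1 was listed at 0% at 12 and 24 h, and Uba7 at 18 and 24 h. The WT rates at 24 h were 5.13% for Nae1 and 15.8% for Uba7. Uba7 was also the gene whose slope in WT did not pass (limma adjusted p = 0.0822).

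Of 8 tested E2 and E2-like genes outside the rule, label fell in 8 in each genotype. This was beside 95.2% (WT) and 91.5% (YBX1-/-) of tested genes, and 0 of the 8 passed between genotypes. Aktip and Tsg101, E2 variants without a catalytic cysteine, had slope differences of -0.24 (SE 0.07) and -0.06 (SE 0.02), with limma adjusted p = 0.197 and 0.234. Cdc34, the E2 of SCF ligases, had -0.06 (SE 0.03, adjusted p = 0.483). Aktip had rates of 15.4%, 14.4% and 10.2% in WT at 6, 12 and 18 h and of 3.08%, 0% and 0.84% in YBX1-/-. Its limma adjusted p was 0.0447 over 0 to 12 h and 0.0213 without the 12 h time point, under the threshold.

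Of 41 tested E3 ligase genes, label fell in 41 in WT and 40 in YBX1-/-, beside 95.2% and 91.5% of tested genes. Again 0 of the 41 passed between genotypes, where 0.108% of tested genes did for the slope difference. Rad18, the ligase partner of Ube2a and Ube2b, had -0.25 log2 per h (SE 0.048, adjusted p = 0.112, limma), with 0% in YBX1-/- at 12, 18 and 24 h against 4.0%, 2.17% and 3.12% in WT. Anapc2, a subunit of the anaphase-promoting complex, had 0.18 (SE 0.037, adjusted p = 0.115), and Gid4, the substrate receptor of the CTLH ligase, 0.16 (SE 0.04, adjusted p = 0.156). Gid4 was listed at 0% in WT at 18 and 24 h against 2.04% and 0.543% in YBX1-/-. The mean CPM was 2.77 for Rad18, 5.28 for Anapc2 and 14.8 for Gid4. Without the 12 h time point Rad18 and Anapc2 passed, with limma adjusted p = 0.0237 and 0.0345. The medians of the slope difference were -0.022, -0.036 and -0.010 for the 3 lists, beside 0.004 for tested genes.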

How the data were processed

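The deposited table gives, for 86993 intervals, a T-to-C rate per library as a fraction from 0 to 1 by the authors. It also gives mean CPM, coverage signal on Ts and T content, which per the file headers are the authors' means over libraries. CASAVA, HISAT2 2.1.0 and GRCh38 are named in the submitters' processing notes. The program that counted conversions, and its denominator, are not given in the sources used here. For 7396 of 7411 tested genes the interval lay inside an exon in GENCODE M21 (GRCm38), and in all 7396 its T count equalled the deposited T content, so coordinates are given in GRCm38, counted from 1. Depth per library is unknown, so no interval for counting error is given. Rates listed at 0 entered the fits as 0, whether or not the library had reads there.

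Symbols were matched for 21148 genes. Per gene the interval of highest mean CPM was used, and the longer one in a tie. Rates in percent were analysed as log2(rate + 0.1), which understates changes of low rates, for genes above 0 in at least 12 of 16 libraries. The fits used limma (3.58.1, run under R 4.3.3) and its trend option. They gave the slope over hours per genotype. After subtraction of the library median, they gave the genotype by hours term (slope difference, YBX1-/- minus WT, negative for faster loss in YBX1-/-, with the time point as a factor) and the genotype term (level difference). Benjamini-Hochberg adjustment ran over all tested genes. Half-life is -1 divided by the slope. The scripts were tested on simulated data. Alternatives were other pseudocounts, filters, time windows, intervals, centring, trend and time terms, and leaving out each time point.

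Rates of all libraries are printed for the 4 members with the smallest p in each genotype comparison, the 4 of highest CPM, and the 2 steepest and 2 shallowest WT slopes among members above 0 in every WT library. For the other lists, the 3 genes with the smallest p for the slope difference are named, except that some items are not reported here. The members and lists were chosen with earlier results of these data known. Figures were drawn with matplotlib 3.10.9.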

Additional observations from a re-analysis of the deposited data

How the results depend on the processing

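No E2 transcript passed for the slope difference or the level under any alternative run. The count of all genes passing for the slope difference, 8, was 1 with a pseudocount of 0.01, 1 with 0.5, and 0 with the minimum lowered to 2 libraries, over 0 to 6 h, in limma without trend, and without the YBX1-/- 0 h library. It was 268 over 0 to 12 h and 13 with hours as a straight line, and from 0 to 204 with each time point left out (0 without 0 or 0.5 h, 204 without 12 h, 91 without 18 h). For the level, 1 gene passed at the lower minimum. With rates above 0 in all 16 libraries, 2836 genes were tested, of which 2807 fell in WT and 2810 in YBX1-/-, with 17 of 17 members in each. With each time point left out, 24 to 27 members fell in WT and 26 to 27 in YBX1-/-. Of the 7411 tested genes, 6825 to 7080 fell in WT and 6434 to 6892 in YBX1-/- in these refits. In WT, 21 members fell over 0 to 6 h, 25 over 0 to 12 h and 24 at the lower minimum. The tested genes that fell were, in the same order, 6158 of 7411, 6968 of 7411 and 8528 of 12347.

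The members' median slope difference was -0.076 and their level difference -0.27 at the lower minimum, which also moved the library medians, and the level was -0.41 without centring. Their median slope was -0.24 in WT with a pseudocount of 0.5, -0.38 (WT) and -0.40 (YBX1-/-) over 0 to 12 h, and -0.34 and -0.46 over 0 to 6 h. Tested genes had -0.37 (WT) and -0.38 (YBX1-/-) over 0 to 12 h, and -0.39 and -0.47 over 0 to 6 h. Leaving out single time points gave a members' median of -0.33 (without 24 h) to -0.25 in YBX1-/-.

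Some single slope differences, none past the threshold, changed sign. Over 0 to 6 h these were Ube2l3 (0.051), Ube2e3 (0.067), Nae1 (0.16), Uba7 (0.093), Cdc34 (0.052) and Gid4 (-0.00086). Over 0 to 12 h they were Ube2e3 (0.099), Ube2j1 (0.024) and Uba7 (0.21). Without 24 h it was Ube2j2 (-0.036, with 0.19 as its highest value when other time points were left out). Uba7 passed without 12 h (-0.33). The cause of these changes was not tested. Depth per library is unknown, and the widest scatter was that of Ube2t, Ube2v1 and Ube2h.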

Other observations

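Genes that met the symbol rule but lay under 1 CPM included Ube2cbp, Ube2e2, Ube2s, Ube2d2b, Ube2dnl1, Ube2dnl2, Ube2ql1 and Ube2u. Ube2cbp, named as a binding protein of an E2 and not an E2 itself, had 0.396 CPM and 9 libraries above 0. Ube2s, which extends chains with the anaphase-promoting complex, had 0.115 CPM and 2 libraries above 0, so its course cannot be read here. Ube2e2, Ube2d2b, Ube2dnl1, Ube2dnl2, Ube2ql1 and Ube2u were listed at a rate of 0 in all libraries. For Ube2dnl1, Ube2dnl2, Ube2ql1 and Ube2u the mean CPM was also 0, so these rates stand for no reads and not for lost label.

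Ube2c, the mitotic E2 that starts those chains and is no member, had 19.0 CPM and an uneven course in WT, with 62.2%, 51.5%, 26.7%, 76.5% and 3.23% from 0 to 6 h. In YBX1-/- it had 39.3%, 45.4%, 42.1%, 24.8% and 3.91% at the same times. Its slope difference was 0.0018 log2 per h (SE 0.04, limma adjusted p = 0.991).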
